A study of Mus musculus with 6 samples.

Results

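The muscle acetylcholine receptor and the core genes of the neuromuscular junction were followed in the gastrocnemius of Tmem182 knockout and wild-type mice. The 10 genes were chosen by name: the receptor subunits Chrna1, Chrnb1, Chrnd, Chrne and Chrng, the agrin receptor Lrp4, the kinase Musk, its activator Dok7, the receptor scaffold Rapsn and the esterase anchor Colq. They are 10 of the 19458 genes in the tables. RNA-seq libraries came from C57BL/6 mice aged 9 weeks, 3 with the genotype tmem182-/- and 3 wild type, and each was sequenced on a BGISEQ-500. The allele's design is not described in the labels, which give no cell type restriction and no treatment, and the source labels of knockout libraries 2 and 3 name tmem183 and tmem184 while their genotype field gives tmem182-/-. The protocol text speaks of cultured myoblasts and myotubes, whereas tissue and source labels give skeletal muscle. Nothing says that each library is a separate mouse, so p-values measure the spread between these libraries, which may be technical.

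At the neuromuscular junction, motor axons release acetylcholine onto a receptor pentamer made of alpha, beta, delta and either gamma or epsilon subunits. Gamma is the subunit of fetal and denervated muscle, and epsilon replaces it in adult muscle. Agrin from the nerve binds LRP4, which activates the kinase MuSK together with the adaptor DOK7, and rapsyn then clusters receptors under the nerve ending. In innervated adult fibres these genes are transcribed mainly by the few nuclei beneath the synapse, which are a small part of the nuclei in a whole-muscle library. In such bulk samples fewer cells or nuclei of a kind and less RNA per cell cannot be told apart.

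Expected counts summed to between 16212341 and 18672630 per library, and Myh4, a fast myosin heavy chain, was the most abundant gene in each. Muscle fibre markers fitted the tissue label: all 10 were detected, with summed levels of 83490 to 111750 FPKM. Tmem182 read 6.23, 4.30 and 2.17 FPKM in knockout libraries 1, 2 and 3, where wild-type libraries 1, 2 and 3 read 147.48, 121.39 and 120.97 FPKM. It was low in all 3 knockout libraries, including those whose source labels name other genes, with a log2 fold change of -5.02 and an SE of 0.30 (adjusted p from edgeR = 0.00391). Knockout library 1 stood apart, with 22.0% of its counts in its 10 most abundant genes against 28.2% to 31.9% in the others and a TMM scaling factor of 1.19 against 0.933 to 1.04. FPKM carries no TMM scaling, so this library reads relatively higher in FPKM than in CPM, the counts scaled to the TMM-adjusted library size, and both are given where they differ in overlap.

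Promoter sequences are shown for 4 genes: the adult and fetal subunits Chrne and Chrng, the alpha subunit Chrna1, and Musk. Alone of the 9 tested genes, Musk had groups without overlap in both FPKM and CPM, the library-scaled counts, without passing the test. Non-overlap was seen for 7.55% of all genes tested in FPKM and for 9.17% in CPM. The share for both scales at once was not computed. RefSeq start-site windows (GRCm38.p6, 250 bases before to 50 after the start) were held for 6 of the 10 genes. In adult junctions the N-box, an Ets-family element, is known for driving Chrne beneath the nerve, and E-boxes, bound by the myogenic factors, for driving Chrna1 and Chrng when muscle is not innervated. The 250 bases before the start are printed 5′ to 3′ on the strand of the gene, for Chrne as chr11:70619195-70619444 (minus), Chrng as chr1:87205561-87205810 (plus), Chrna1 as chr2:73580339-73580588 (minus) and Musk as chr4:58285712-58285961 (plus). Capitals mark the matches to the E-box CANNTG, which reads alike on both strands, or to the N-box CCGGAA on either strand. The RefSeq start of Chrng lies inside the GENCODE gene, downstream of its first base.
Chrne: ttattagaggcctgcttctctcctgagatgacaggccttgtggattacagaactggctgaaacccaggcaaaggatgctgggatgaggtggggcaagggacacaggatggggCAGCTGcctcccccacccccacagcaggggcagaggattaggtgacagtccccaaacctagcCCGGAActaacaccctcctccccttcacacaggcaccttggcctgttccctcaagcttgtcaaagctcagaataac
Chrng: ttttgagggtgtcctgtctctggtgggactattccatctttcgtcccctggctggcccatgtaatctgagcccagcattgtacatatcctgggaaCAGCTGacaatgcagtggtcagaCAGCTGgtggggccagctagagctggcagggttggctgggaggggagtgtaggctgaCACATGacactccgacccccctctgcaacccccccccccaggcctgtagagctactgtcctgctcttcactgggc
Chrna1: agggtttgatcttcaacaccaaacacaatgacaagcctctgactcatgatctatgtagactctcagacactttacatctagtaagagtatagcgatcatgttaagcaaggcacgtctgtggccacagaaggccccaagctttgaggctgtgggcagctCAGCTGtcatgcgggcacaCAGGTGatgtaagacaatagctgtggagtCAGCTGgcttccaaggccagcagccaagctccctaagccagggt
Musk: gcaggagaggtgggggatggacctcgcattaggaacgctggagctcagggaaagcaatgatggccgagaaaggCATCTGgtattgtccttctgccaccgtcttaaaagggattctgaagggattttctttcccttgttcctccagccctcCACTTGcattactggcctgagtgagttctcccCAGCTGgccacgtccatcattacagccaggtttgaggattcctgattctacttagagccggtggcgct
Among the windows of these 6 genes only that of Chrne held an N-box, which begins at position -76 from the start site, with 1 E-box at -138. Chrng, Chrna1, Chrnb1 and Musk had 3 E-boxes each and no N-box. Of all 32851 windows, 72.31% held at least 1 E-box, 17.61% at least 3 and 14.9% an N-box. The E-box and N-box matches printed here share no bases, and a match is a run of letters and not a shown binding site.

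In order of their mean over the 6 libraries, Rapsn was at 16.5 ± 1.15 FPKM, Chrnb1 at 15.4 ± 1.28, Chrne at 10.2 ± 2.46 and Dok7 at 6.52 ± 0.82 FPKM (SD, n = 6). Colq followed at 4.42 ± 1.0 FPKM, then Chrna1 at 3.83 ± 1.25, Musk at 3.56 ± 0.85, Lrp4 at 1.72 ± 0.61, Chrnd at 0.74 ± 0.44 and Chrng at 0.067 ± 0.038 FPKM (SD, n = 6). Only 2 steps of this order were wider than the ranges over libraries, that from Dok7 to Colq and that from Chrnd to Chrng. The ranges of all other neighbours overlapped. By mean FPKM, Rapsn was above 86.1% of all genes in the tables, undetected ones included, and Musk above 63.2%. Lrp4 was above 53.3% of them, Chrnd above 44.1% and Chrng above 26.3%. Within each of the 6 libraries Chrne was nevertheless below both Rapsn and Chrnb1, while Rapsn was above Chrnb1 in 4 libraries and below it in 2.

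**Figure D1:**
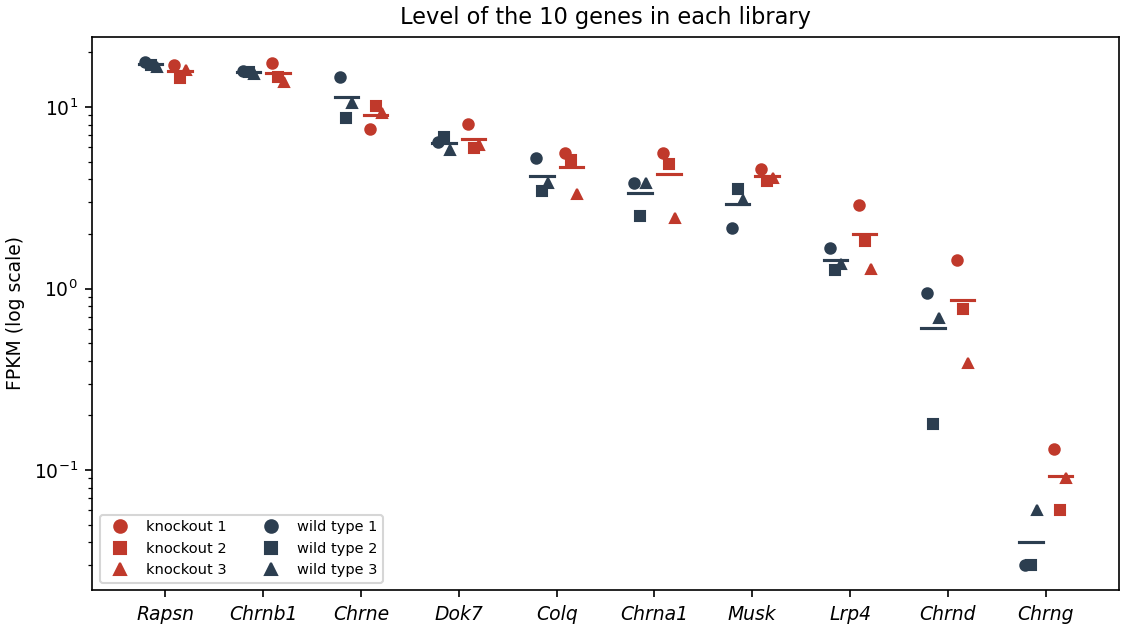
Level of each of the 10 genes in FPKM on a log axis, in order of the mean over all libraries; points are single libraries, red for knockout and dark blue for wild type, and bars are group means. Chrng lies at 0.03 to 0.13 FPKM, below every other gene, and only Musk has all 3 knockout points above all 3 wild-type points. Groups did not overlap in FPKM, in either direction, for 7.55% of all genes tested.

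None of the 9 junction genes that could be tested passed an adjusted p of 0.05 between knockout and wild type by edgeR's quasi-likelihood test, and 0 reached an unadjusted p under 0.05. Among all 12774 genes tested, 1 (0.00783%), Tmem182 itself, passed. Unadjusted p-values under 0.05 were found for 3.55% of all genes, 2.07% higher and 1.48% lower in the knockout. DESeq2 also called 0 of the 9, against 0.047% of all genes. The mean was higher in knockout libraries for 6 of the 9 and lower for 3, with a median log2 fold change of 0.05 beside 0.00 over all genes tested. Chrng fell under the filter on low counts and is described by its counts.

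No receptor subunit passed the test, and differences between subunits were not tested. Chrne, the adult epsilon subunit (chromosome 11, 70614883 to 70619216, minus strand), read 7.62, 10.19 and 9.30 FPKM in knockout libraries 1 to 3 against 14.71, 8.66 and 10.54 FPKM in wild-type libraries 1 to 3, from 196 to 414 expected counts per library. The highest value was that of wild-type library 1 and the lowest that of knockout library 1, and the groups overlapped. The log2 fold change was -0.36 (SE 0.23), with a 95% interval that allows from a 0.538-fold to a 1.12-fold level in the knockout (edgeR adjusted p = 0.994). Leaving out knockout library 1 gave -0.17 and wild-type library 1 gave -0.19, and the lowest value was -0.51, when wild-type library 2 was left out.

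Chrna1 (chromosome 2, 73563215 to 73580338, minus strand) encodes the alpha subunit, which carries the main part of the acetylcholine-binding sites and is present in more than 1 copy per receptor. Knockout values were 5.59, 4.85 and 2.46 FPKM, and wild-type values 3.80, 2.50 and 3.80 FPKM. Knockout libraries 1 and 2 were above every wild-type library and knockout library 3 was the lowest of all 6. The log2 fold change was 0.27 (SE 0.27; 0.782-fold to 1.85-fold at 95%, edgeR adjusted p = 0.994). It was 0.091 without knockout library 2, 0.158 without knockout library 1, 0.098 without wild-type library 2, 0.40 without wild-type library 3 and 0.51 without knockout library 3.

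Chrnb1, the beta subunit (chromosome 11, 69784036 to 69795943, minus strand), varied least of the 10 genes, with a coefficient of variation of 4.72% in CPM over the 6 libraries. In CPM it was at 30.5, 31.5 and 30.8 in the knockout and 31.6, 33.6 and 34.2 in wild type, so that every knockout library lay just under every wild-type library. In FPKM the groups overlapped, at 17.58, 14.68 and 13.79 against 15.88, 15.52 and 15.15, with knockout library 1 the highest. The log2 fold change was -0.10 (SE 0.08; 0.815-fold to 1.07-fold at 95%, edgeR adjusted p = 0.994).

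Chrnd, the delta subunit, varied most among the tested genes, with a coefficient of variation of 51.4% in CPM. Its levels were 1.44, 0.77 and 0.39 FPKM in knockout libraries, with 0.95, 0.18 and 0.69 FPKM for wild type. Library 1 was the highest of each genotype, and wild-type library 2, with 10 counts, was the lowest. The log2 fold change of 0.42 (SE 0.57) has a 95% interval from a 0.53-fold to a 3.36-fold level (edgeR adjusted p = 0.994). Leaving out knockout library 1 gave -0.0077, and leaving out wild-type library 2 gave -0.0144. Chrnd lies on chromosome 1 (87190607 to 87200070, plus strand), with Chrng next to it on the same strand after a gap of 4586 bases.

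Chrng, the fetal gamma subunit (chromosome 1, 87204657 to 87212694), was close to undetected in both genotypes. Its counts were 4, 2 and 3 in knockout libraries 1, 2 and 3 and 1, 1 and 2 in wild-type libraries 1, 2 and 3. These 9 against 4 counts give a ratio of 2.24 in the knockout over wild type, with an exact 95% counting interval from 0.627 to 9.98, which covers counting error only. By edgeR without the filter on low counts, the log2 fold change of Chrng was 1.09 (SE 0.78, unadjusted p = 0.1975, adjusted p = 0.961). In FPKM the gamma share of gamma plus epsilon was 1.68%, 0.585% and 0.958% in the knockout and 0.204%, 0.345% and 0.566% in wild type. Every knockout share was above every wild-type share, and the closest, knockout library 2 and wild-type library 3, rest on 2 gamma counts each. From counts the exact binomial 95% intervals ran from 0.548% to 5.04% in knockout library 1, the widest of that genotype. They ran from 0.0061% to 1.335% in wild-type library 1, the narrowest of wild type. The intervals of knockout library 2 (0.0828% to 2.44%) and wild-type library 3 (0.079% to 2.33%) were nearly alike. Epsilon was thus the larger part by far in each of the 6 libraries, and a difference in gamma between the genotypes was not detectable at this depth.

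Of the clustering machinery, Musk was the only one whose groups were apart in both CPM and FPKM, without passing the test. The levels of this receptor tyrosine kinase (chromosome 4, 58285960 to 58374303, plus strand) were 4.58, 3.94 and 4.05 FPKM in knockout and 2.15, 3.55 and 3.07 FPKM for wild type, and in CPM 27.6, 29.9 and 30.0 against 14.7, 26.9 and 23.5. All 3 knockout libraries were above all 3 wild-type libraries on both scales, and wild-type library 1 was far under the other wild-type libraries. The log2 fold change was 0.42 (SE 0.20; 0.966-fold to 1.86-fold at 95%; edgeR unadjusted p = 0.0724, adjusted p = 0.994), and without wild-type library 1 it was 0.21. Non-overlap in CPM was seen for 2 of the 9 genes, Musk higher and Chrnb1 lower, and for 9.17% of all genes tested (4.67% higher, 4.5% lower). In FPKM it was seen for 1 of the 9, again Musk, and for 7.55% of all genes. Without wild-type library 2 Musk reached an unadjusted p of 0.0205 by edgeR, where 2.68% of all genes were under 0.05. It was also under 0.05 by limma-voom with quality weights (7.9% of all genes), with the slow fibre level added to the model (3.7%), and by limma on log2(FPKM + 1) (2.52%) and log2(FPKM + 0.1) (2.63%), and never after adjustment. In all, Musk was under 0.05 unadjusted in 6 of 15 alternative fits. It was not in the rest, such as without wild-type library 1 (edgeR unadjusted p = 0.130) or without knockout library 2 (edgeR unadjusted p = 0.147). Chrna1, Rapsn and Lrp4 were under 0.05 unadjusted in 1 of 15 each, and Ache, described below, in 4, never after adjustment. Relative to Dok7 in the same library, Musk was at 0.571, 0.665 and 0.658 in the knockout and 0.333, 0.522 and 0.531 in wild type, as ratios of FPKM. This was the only one of 8 such ratios whose groups did not overlap. It reuses the Musk values above, so it adds no independent evidence. The 8 pairs were chosen by hand, with no share over all gene ratios to set beside them. They leave out gamma with epsilon, whose share, given above, also did not overlap. Relative to Lrp4 Musk was at 1.59, 2.17 and 3.14 in the knockout and 1.29, 2.79 and 2.24 in wild type, with overlap.

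Lrp4, the agrin receptor (chromosome 2, 91457511 to 91513779, plus strand), read 2.88, 1.82 and 1.29 FPKM in knockout libraries beside 1.67, 1.27 and 1.37 FPKM for wild type. Knockout library 1 was the highest and the groups overlapped (log2 fold change 0.36, SE 0.23; 0.895-fold to 1.85-fold at 95%). Dropping knockout library 1 gave a log2 fold change of 0.11, and dropping knockout library 3 one of 0.57. Dok7, the cytoplasmic activator of MuSK (chromosome 5, 35056766 to 35087839, plus strand), read 8.02, 5.92 and 6.15 FPKM in knockout libraries, where wild type read 6.45, 6.80 and 5.78 FPKM. Its groups overlapped and its interval was narrow, from a 0.854-fold to a 1.18-fold level (log2 fold change 0.01, SE 0.10).

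Rapsn (chromosome 2, 91035620 to 91045729, plus strand) encodes rapsyn, which holds receptors in clusters on the cytoplasmic face. Knockout libraries held 16.95, 14.45 and 16.03 FPKM and wild-type libraries 17.74, 17.16 and 16.70 FPKM, and only knockout library 1 reached the wild-type range in FPKM. In CPM it was at 23.1, 24.4 and 27.51 against 27.48, 28.9 and 28.9, where only knockout library 3 did, by a small margin. The log2 fold change was -0.18 (SE 0.10; 0.751-fold to 1.03-fold at 95%, edgeR unadjusted p = 0.0993). An annotated noncoding gene, Gm13778, overlaps an exon of Rapsn on the opposite strand, with the strand setting of the counting not given in the sources used here.

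Colq (chromosome 14, 31523082 to 31591343, minus strand) encodes the collagen tail that anchors acetylcholinesterase in the synaptic cleft. Its 5.57, 5.12 and 3.30 FPKM in knockout libraries overlapped the 5.25, 3.47 and 3.84 FPKM of the wild-type libraries (log2 fold change 0.05, SE 0.20; 0.75-fold to 1.42-fold at 95%). The protein-coding model Gm49387 shares exonic sequence with Colq on the same strand, which makes the Colq counts less certain. Ache, the esterase itself, read 13.61, 16.02 and 13.32 FPKM in knockout libraries, with 17.22, 19.76 and 16.14 FPKM in wild-type ones. Its FPKM ranges did not overlap, as for 7.55% of all genes tested, but its CPM ranges did (log2 fold change -0.35, SE 0.16; edgeR unadjusted p = 0.0554, adjusted p = 0.994).

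**Figure D2:**
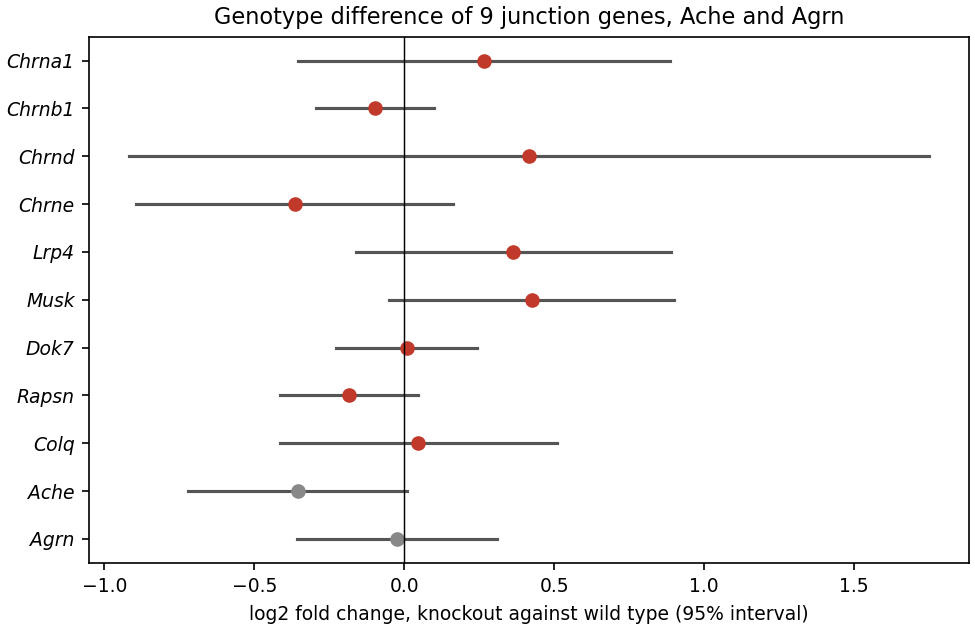
Log2 fold change of knockout against wild type with its 95% interval from edgeR for the 9 tested genes (red) and for Ache and Agrn (grey). Every interval includes 0; the narrowest of the 9 is that of Chrnb1 (-0.30 to 0.10) and the widest that of Chrnd (-0.92 to 1.75).

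Other genes of the junction were read from 4 lists: partners of agrin and MuSK signalling, transcription and neuregulin signalling, esterase with matrix and membrane, and the glycosylation genes of congenital myasthenia. Of 90 listed genes 85 were tested, and 0 passed in either direction by edgeR's adjusted p (also 0 by DESeq2). An unadjusted p under 0.05 was reached by 3 of the 85, beside 3.55% of all genes. These 3 were higher in the knockout (2.07% of all genes) and 0 were lower (1.48%), and 42 had a higher and 43 a lower mean. The medians of the 4 lists lay between -0.11 and 0.00 on the log2 scale, beside 0.00 over all genes.

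The 3 genes were Apc, Kif5b and Erbin. Apc, a microtubule-binding protein that has been tied to receptor clusters, read 7.78, 6.24 and 5.61 FPKM in knockout libraries beside 5.14, 4.22 and 4.53 FPKM for wild type, a log2 fold change of 0.41 with an SE of 0.10 (edgeR unadjusted p = 0.00358). For Kif5b, a kinesin heavy chain, the knockout libraries held 30.20, 27.61 and 25.97 FPKM and the wild-type libraries 22.47, 15.38 and 22.51 FPKM (0.41, SE 0.16). For Erbin, a scaffold that binds the neuregulin receptor ErbB2, they held 9.28, 7.75 and 7.06 FPKM against 5.94, 5.19 and 6.64 FPKM (0.36, SE 0.12). In all 3 every knockout library was above every wild-type library in CPM. Over the 85 genes such non-overlap was seen for 4 higher and 2 lower genes, beside 4.67% and 4.5% of all genes tested. Agrn, which encodes agrin, read 3.90, 2.59 and 2.26 FPKM in knockout libraries, overlapping the wild-type values of 2.94, 2.35 and 2.77 FPKM, with a log2 fold change of -0.02 (SE 0.14).

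None of the other genes with the smallest p-values of their lists passed. Of the signalling partners, the kinase Abl1 was at -0.21 on the log2 scale (SE 0.13), and the phosphatase Ptpn11 at 0.25 (SE 0.12). Gabpa, a subunit of the Ets-family factor that binds the N-box, read 7.66, 5.05 and 4.60 FPKM in knockout libraries, where wild type read 5.92, 3.98 and 4.57 FPKM, so that the groups overlapped (0.16, SE 0.15). Ufsp1, a protease of the UFM1 pathway, was at -0.23 on the log2 scale (SE 0.20). Myf5, a myogenic factor, was at -0.25 (SE 0.29). It was named through the satellite cell markers and was not among the 4 smallest p-values of its junction list. In the matrix and membrane list, Lama5, a laminin alpha chain, was at -0.16 (SE 0.11). Col4a3, a synaptic basal lamina collagen, was at 0.59 (SE 0.28) from at most 0.49 FPKM. Of the glycosylation genes Alg14 had a log2 fold change of 0.34 (SE 0.17), Alg2 of -0.25 (SE 0.19), Dpagt1 of -0.11 (SE 0.10) and Gfpt1 of -0.09 (SE 0.15). Nrg1 and Erbb4, a neuregulin and its receptor, were too low to be tested, at no more than 0.01 and 0.05 FPKM.

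**Figure D3:**
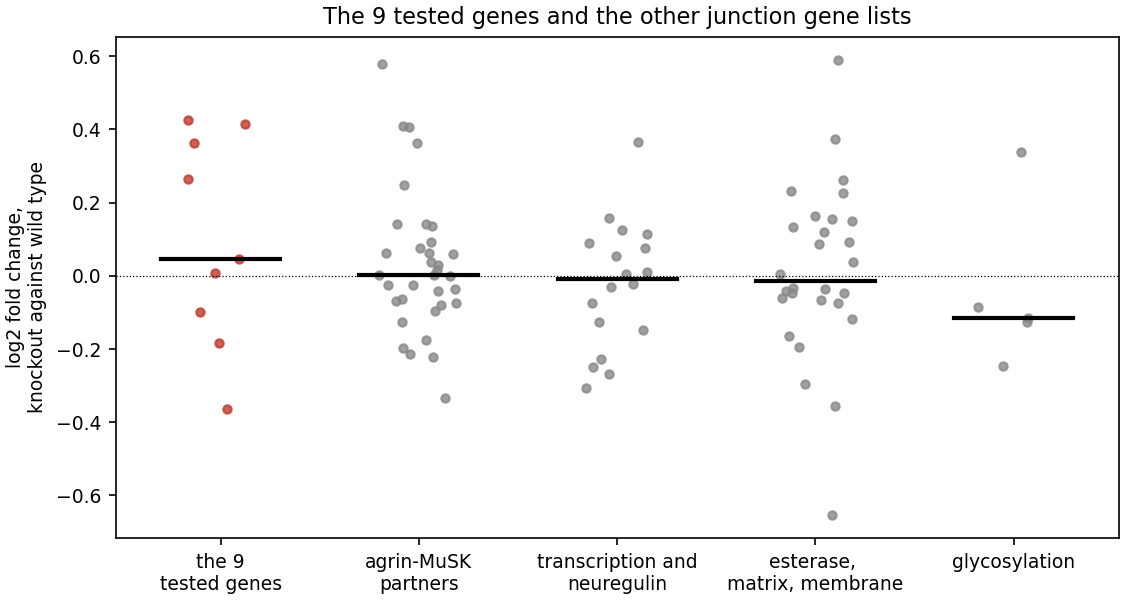
Log2 fold changes of knockout against wild type for the 9 tested genes (red) and for 4 other lists of junction genes (grey); each point is a gene and black bars are list medians. Points of every list lie on both sides of 0, and 0 of the genes shown passed the adjusted threshold.

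Subunits of neuronal nicotinic receptors were near the limit of detection. Of 11 listed, 10 were in the tables, 1 of them, Chrna3, was listed at 0 in all libraries and only Chrna10 could be tested. Its 2.05, 1.25 and 0.66 FPKM in knockout libraries overlapped the wild-type values of 1.77, 1.08 and 1.45 FPKM (log2 fold change -0.23, SE 0.34). Every other subunit in the tables did not exceed 0.62 FPKM in any library.

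Genes that muscle is known to induce on denervation were mixed. Of 12 tested, which include Chrna1, Chrnd and Musk, 0 passed, 9 had a higher and 3 a lower mean, and the median log2 fold change was 0.30. Leaving those 3 aside, 6 were higher and 3 lower. Myog, the myogenic factor of denervated muscle, read 2.27, 2.01 and 1.90 FPKM in knockout libraries, and wild-type libraries 3.25, 2.08 and 1.84 FPKM, with overlap (-0.27, SE 0.23). Runx1, a transcription factor induced by denervation, had a log2 fold change of 0.44 (SE 0.28) from at most 0.85 FPKM. Gadd45a, a stress and denervation gene, held 8.73, 7.92 and 7.49 FPKM in knockout libraries, all below the 10.06, 10.02 and 11.85 FPKM of wild type. Its log2 fold change was -0.47 with an SE of 0.14 (unadjusted p = 0.00994 and adjusted p = 0.994 by edgeR). Non-overlap in FPKM was seen for 7.55% of all genes tested.

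Chrna1, Chrnd, Lrp4 and Colq had their lowest CPM of each genotype in the library with the least slow fibre transcript. The slow fibre level, the mean log2 CPM of 9 slow fibre markers such as Myh7 and Tnni1, was 8.1, 7.85 and 3.34 in knockout libraries 1, 2 and 3 and 6.62, 3.71 and 6.51 in wild-type libraries 1, 2 and 3. Chrna1 had CPM values of 20.5, 22.1 and 11.4 in the knockout and 15.9, 11.3 and 17.8 in wild type. Having the lowest value in knockout library 3 and in wild-type library 2, as these 4 genes did, holds for 18.1% of all genes tested. Chrnd and Lrp4 also shared the whole order of the slow fibre level in both genotypes, Colq in wild type only and Chrna1 in neither.

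With the slow fibre level and genotype in the same edgeR model, a comparison added after the data were seen, the slope of Chrna1 was 0.19 log2 units per log2 unit of slow fibre level (SE 0.03, unadjusted p = 0.000309, adjusted p = 0.132). Chrnd had a slope of 0.38 (SE 0.10, unadjusted p = 0.00701), Lrp4 of 0.14 (SE 0.04, unadjusted p = 0.00864) and Colq of 0.12 (SE 0.04, unadjusted p = 0.0138), all by edgeR. So 4 of the 9 genes had a positive slope with an unadjusted p under 0.05, as did 7.91% of all genes tested (11.2% in either direction), and 0 passed the adjusted threshold, which 0.102% of all genes did. Those were 13 genes, and 8 of them were slow fibre markers that make up the level itself. A positive slope with an unadjusted p under 0.05 was also found for 6 of the 12 tested denervation-induced genes. Among the 9 of these that are not junction genes of this report, it was found for 4. Each of the 9 slow fibre markers was also higher on average in knockout libraries, their median being 1.4957 on the log2 scale, with 0 called. In the same model the genotype difference was 0.07 on the log2 scale for Chrna1, 0.10 for Chrnd, 0.21 for Lrp4 and -0.063 for Colq, beside 0.49 for Musk.

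Slopes of the other 5 tested genes lay near 0, with intervals that include it. Chrnb1 had a slope of -0.00 (SE 0.02), Chrne of 0.01 (SE 0.06), Dok7 of -0.02 (SE 0.03), Rapsn of -0.04 (SE 0.03) and Musk of -0.06 (SE 0.05). Differences between the slopes of single genes were not tested. Leaving out each library in turn kept the Chrna1 slope between 0.18 and 0.21, and that of Chrnd between 0.28 and 0.76. The count of 4 genes fell to 2 without knockout library 3 and stayed at 4 in the other 5 cases. Without knockout library 2 the adjusted p was 0.0146 for Chrna1, 0.0334 for Chrnd and 0.0394 for Lrp4, in a fit that called 9.15% of all genes. With any other library left out, 0 of the 9 passed, and the adjusted p of Chrna1 ran up to 0.649 and that of Lrp4 and Chrnd up to 0.788.

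**Figure D4:**
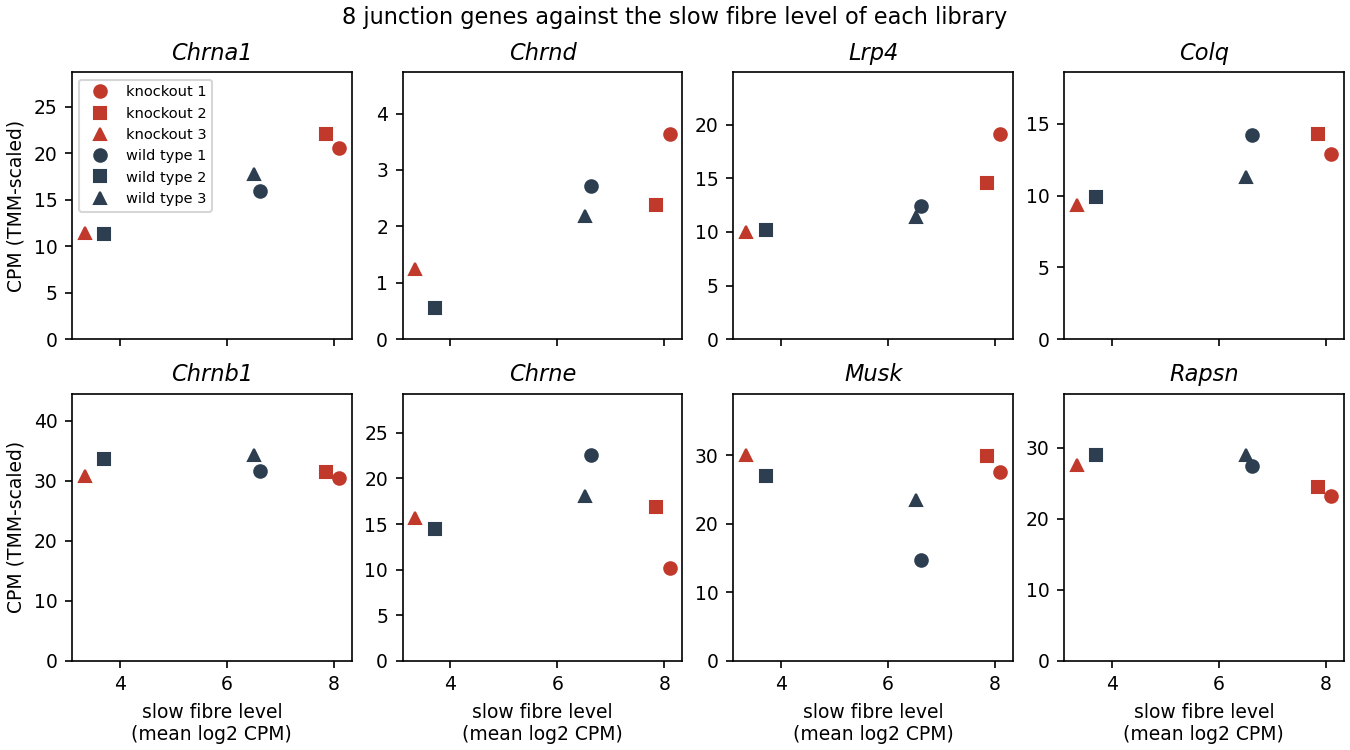
TMM-scaled CPM of 8 junction genes against the slow fibre level of each library (mean log2 CPM of 9 markers); red points are knockout and dark blue points wild-type libraries. In the upper row Chrna1, Chrnd, Lrp4 and Colq are lowest, within each genotype, in the libraries with the lowest slow fibre levels (3.34 and 3.71). In the lower row Chrnb1, Chrne, Musk and Rapsn have their lowest value over all libraries elsewhere. Within wild type alone, Chrne too is lowest in the library with the lowest slow fibre level.

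Among 6128 genes with a mean of at least 5 FPKM, those whose log2(FPKM + 1) over the 6 libraries was most like that of Chrna1 were Atp2a2, the slow calcium pump (Pearson r = 0.998), Tpm3 (0.995), Tnnt1 (0.984), Gatb (0.984) and Tnni1 (0.983). Of these, 4 are slow fibre markers, and all points share the same libraries and their depth. For Chrne the 5 most alike were Osbpl9 (0.977), Mtap (0.97), Pccb (0.969), Mknk1 (0.967) and Ndufaf6 (0.961), with 12 genes at an r of 0.9 or more against 115 for Chrna1. These values over 6 libraries are a description.

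Other cell types also varied between libraries. Summed over 12 Schwann cell and myelin markers, the level was 328.0, 55.3 and 96.6 FPKM in knockout libraries 1, 2 and 3 and 218.4, 24.3 and 44.7 FPKM in wild-type libraries 1, 2 and 3, with all 12 detected in each library. Library 1 of each genotype was the highest, as it was in FPKM for Chrnd, Lrp4, Colq and Agrn. The 6 endothelial markers summed to 133.8, 79.4 and 55.4 FPKM in knockout libraries 1, 2 and 3 and to 97.4, 55.6 and 77.7 FPKM in wild-type libraries 1, 2 and 3, the order of the slow fibre level in both genotypes. All 6 had a positive slope on that level with an unadjusted p under 0.05 by edgeR (7.91% of all genes), and their sum was lowest in the same libraries as Chrna1, Chrnd, Lrp4 and Colq. Of the 9 motor axon markers 8 were in the tables, and Slc5a7, Slc18a3 and Mnx1 were listed at 0 in all 6 libraries. The 7 macrophage markers summed to 59.7 FPKM in knockout library 1 and to between 16.0 and 26.5 FPKM elsewhere, and the 8 satellite cell markers to between 17.1 and 29.95 FPKM. The part of these cells in the junction values was not tested.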

How the data were processed

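Gastrocnemius RNA of 3 knockout and 3 wild-type libraries was analysed, grouped by the labels. Per the file headers, the deposited tables list for each gene a count and an FPKM. Of the deposited counts 26.2% to 27.5% are not whole, and they are taken to be RSEM's expected counts. HISAT2 2.0.4, Bowtie2 2.2.5, RSEM 1.2.12 and GRCm38 are named in the submitters' processing notes, with their roles, the annotation, read filters and strand setting not given in the sources used here. The FPKM values are those deposited by the authors.

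Counts were rounded, filtered (filterByExpr, minimum count 10) and scaled by TMM. The genotypes were compared by the quasi-likelihood test of edgeR 4.0.16 (R 4.3.3), two-sided and without a block, with p-values adjusted by Benjamini-Hochberg over 12774 genes. SEs are the absolute log2 fold change over the square root of F. Scripts were tested on simulated data, and no libraries matched within counting noise (lowest chi-square per degree of freedom between any pair, 12.9).

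The 10 genes and all lists were chosen with earlier results of these data known. Besides the 10 genes, the rule names Tmem182, Ache, Agrn, in each other list the genes that passed and up to 4 with the smallest p, and the 5 genes most like Chrna1 and Chrne. Most marker genes so named are given as sums only, and genes named as too low to test stand outside the rule. Some genes falling under it are not reported here by name, while the sums and counts of their lists include them. Other settings were a replicate block, leaving out single libraries, other filters, DESeq2 1.42.0 (size factors and Wald test), limma 3.58.1 on log2(FPKM + 1) and log2(FPKM + 0.1), limma-voom with quality weights, an adjusted p of 0.10 and the slow fibre level as a covariate. Positions are those of GENCODE M21 on GRCm38.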

Additional observations from a re-analysis of the deposited data

How the results depend on the processing

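No call was made among the junction genes or the genes of the other junction lists that could be tested, under any of the 16 alternatives (0 each). The main fit tested 9 of the 10 and 85 of the 90, and Chrng was tested only without the filter on low counts. The log2 fold changes of Chrna1, Chrnb1, Chrne, Musk, Rapsn and Lrp4 kept their sign in all of them, with Musk between 0.21 and 0.61. With each library left out in turn, log2 fold changes that turned ran from -0.0144 to 0.83 for Chrnd, -0.033 to 0.078 for Dok7, -0.084 to 0.20 for Colq, -0.16 to 0.084 for Agrn, -0.19 to 0.036 for Gfpt1, -0.54 to 0.049 for Chrna10, -0.024 to 1.34 for Mb, -0.20 to 1.73 for Pmp22, -0.16 to 0.92 for Stmn2, -0.027 to 0.57 for Emcn, -0.042 to 0.38 for Cldn5, -0.10 to 0.39 for Tek, -0.16 to 0.35 for Pecam1 and -0.59 to 0.38 for Mkx. With the slow fibre covariate Colq was at -0.063, Tnni1 at -0.27 and Pecam1 at -0.036. Limma-voom gave Gfpt1 0.018, Tek -0.022, Pecam1 -0.10 and Scx 0.038. Agrn was at 0.068 by limma on log2(FPKM + 1) and 0.083 on log2(FPKM + 0.1). With the replicate block Musk had a log2 fold change of 0.46 (edgeR unadjusted p = 0.0218) and Ache of -0.37. With it 743 of 12774 genes had an unadjusted p under 0.05 against 453 without it, and 0 of the 9 tested junction genes were called. The labels do not say whether the numbers pair the libraries, and the values do not settle it. Deviations of same-numbered libraries correlated at 0.524, 0.179 and -0.122. Knockout libraries 1 and 2 correlated best with the wild-type library of the same number, and knockout library 3 with wild-type library 2. Tmem182 ran from -5.26 to -4.75 with single libraries left out and missed the threshold without knockout library 2 (adjusted p of 0.0716 by edgeR) or wild-type library 3 (0.0529). At 1 to 4 counts per library, depth limits what can be said of Chrng. The cause of these shifts was not tested.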
